A study of Mus musculus with 16 samples.

Results

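The genes measured here are those of the urea cycle and of glutamine handling in mouse liver. The results are for 9 of the 46078 genes in the count table, chosen by symbol through their Ensembl identifiers, and all 9 passed the filter that left 15075 genes for testing. They are Cps1, Otc, Ass1 and Asl, which encode enzymes of the cycle, Nags, which encodes the enzyme that makes its activator, Slc25a13 and Slc25a15, which encode mitochondrial carriers that serve it, and Gls2 and Glul, which encode the liver's glutaminase and glutamine synthetase. Transcripts were measured by RNA-seq of polyadenylated RNA in livers of male mice (strain given in the labels as C56B6/J), with 1 library per mouse. The mice were 8 weeks old when they were assigned to a control diet (CD) or to a high-fat diet (HFD) with 60% of its calories from fat, which they ate for 16 weeks. In each diet 4 mice had free access to food (CD fed, HFD fed) and 4 were fasted for 16 h before the liver was taken (CD fast, HFD fast). The labels name no transgene, deletion or pooling of animals, and HFD serves here as a model of diet-induced obesity. The comparisons ask how fasting and diet change these transcripts, and whether the response to fasting differs between the diets.

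The urea cycle converts ammonia, released when amino acids are burned or turned into glucose, into urea for excretion. It begins in the mitochondria of hepatocytes near the portal vein, where ammonia is fixed as carbamoyl phosphate and joined to ornithine, and it continues in the cytosol. Periportal glutaminase feeds ammonia from glutamine into the cycle, and the narrow layer of hepatocytes around the central vein carries glutamine synthetase, which traps the ammonia that the cycle has missed. In fasting, when muscle protein supplies amino acids to the liver, glucagon and glucocorticoids are the known hormonal inducers of the cycle's enzymes.

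Promoters of the members were looked up in RefSeq, in windows from 250 bases before to 50 bases after an annotated start (build GRCm38.p6), and 6 of the 9 members had an entry (Otc, Ass1, Nags, Slc25a13, Slc25a15 and Glul). They had 7 windows, since Slc25a15 had 2 annotated starts, and its window at chr8:22398228-22398527 was searched but is not printed. The 3 windows printed belong to members whose transcripts passed the test for fasting in CD, 1 in the downward and 2 in the upward direction. Each is written 5′ to 3′ along the gene's own strand in lower case, with capitals for a motif match.
Otc, chrX:10252055-10252354, plus strand: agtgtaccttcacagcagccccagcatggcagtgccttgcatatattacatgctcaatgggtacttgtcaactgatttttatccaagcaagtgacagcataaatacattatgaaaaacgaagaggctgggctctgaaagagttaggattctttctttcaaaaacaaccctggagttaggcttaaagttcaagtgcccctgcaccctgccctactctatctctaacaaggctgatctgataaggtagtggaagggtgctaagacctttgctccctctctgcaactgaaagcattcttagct
Slc25a13, chr6:6217124-6217423, minus strand: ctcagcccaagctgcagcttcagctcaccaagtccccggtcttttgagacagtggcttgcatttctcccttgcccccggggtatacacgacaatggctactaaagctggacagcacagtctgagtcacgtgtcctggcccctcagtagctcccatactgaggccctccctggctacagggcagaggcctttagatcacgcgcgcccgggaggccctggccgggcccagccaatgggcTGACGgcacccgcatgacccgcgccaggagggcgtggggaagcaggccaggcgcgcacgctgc
Slc25a15, chr8:22398572-22398871, minus strand: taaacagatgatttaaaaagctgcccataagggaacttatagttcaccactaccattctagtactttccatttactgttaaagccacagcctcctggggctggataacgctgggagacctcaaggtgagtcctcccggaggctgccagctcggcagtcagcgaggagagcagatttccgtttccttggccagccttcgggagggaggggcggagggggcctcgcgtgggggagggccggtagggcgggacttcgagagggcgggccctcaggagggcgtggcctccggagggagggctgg
Both strands were searched for the letters CAAAGTCCA (an HNF4 direct repeat) and TTGCNNAA (a C/EBP site). They were also searched for TGACG (part of a cAMP response element) and TGTTCT (part of a glucocorticoid receptor element). The Slc25a13 window held TGACG once, at bases 238 to 242, with its first base 13 bases before the start. The Nags window held it once on the opposite strand, at bases 282 to 286. None of the other windows of the members held any of these letters. Of all 32851 promoter windows of this length, 20.8% held TGACG, 19.0% TGTTCT, 10.8% TTGCNNAA and 0.475% CAAAGTCCA. A match describes letters only, and no binding was measured.

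Levels of different genes were compared per length, as TPM, in which counts are divided by the merged exon length of each gene and scaled to the same sum in every library. In CD fed livers Ass1, which encodes argininosuccinate synthase, stood at 2925 ± 527 TPM and Cps1, which encodes carbamoyl phosphate synthetase, at 2496 ± 283 TPM (mean ± SD, n = 4), a difference within their spread. Glul followed at 591 ± 135 TPM. Asl (argininosuccinate lyase, 272 ± 48.0 TPM), Otc (ornithine transcarbamylase, 254 ± 13.0 TPM) and Gls2 (252 ± 27.7 TPM) were not separated beyond their spread. The carriers Slc25a15 (151 ± 17.1 TPM) and Slc25a13 (149 ± 12.5 TPM) were likewise level, and Nags was the lowest at 59.5 ± 3.23 TPM. The same gene stood last in the other 3 groups. In CD fast livers the mean of Asl (567 ± 248 TPM) lay close to that of Glul (575 ± 68.8 TPM), and the mean of Otc (150.2 ± 30.0 TPM) lay below those of both carriers. In HFD fast livers Cps1 stood at 1802 ± 553, Ass1 at 2100.1 ± 760.2 and Asl at 274 ± 86.4 TPM, and the mean of Slc25a13 (233 ± 22.6 TPM) lay above those of Gls2, Otc and Slc25a15. The order depends on the length used. With the longest principal transcript in place of the merged exons, Ass1 (2657 to 3917 TPM) and Cps1 (1676 to 2187 TPM) did not overlap in CD fed livers, and neither did Slc25a15 (170 to 217 TPM) and Slc25a13 (124 to 149 TPM). In the same livers Otc had a mean of 359 and Asl of 421 TPM, above Gls2 at 263. In CD fast livers the mean of Asl then exceeded that of Glul (877 against 529 TPM), with overlapping libraries (546 to 1357 and 441 to 588 TPM). The mean of Otc (213 TPM) lay above that of Slc25a13 (195 TPM), as it did in HFD fast livers (249 against 217 TPM).

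Within each gene, libraries were compared as CPM, in which counts are scaled to the same library size, after adjustment of library sizes by TMM (the trimmed mean of M-values). For each comparison a quasi-likelihood test (edgeR) was fitted over all 15075 genes, p-values were adjusted by the Benjamini-Hochberg method over all of them, and a gene passed at an adjusted p under 0.05. Library totals lay between 41364448 and 57583153 counts, and the lowest group mean of a member was 61.4 CPM, far above the 0.0536 to 0.0767 CPM to which 3 counts correspond. Hepatocyte markers (Alb, Apoa1, Ttr, Serpina1c, Tat and Cyp3a11) summed to between 67644 and 135052 CPM, and markers of pancreas, adipose tissue and kidney each summed to at most 2.06 CPM, with Slc12a1 at 0 counts in every library. The annotated exons of Nags overlap those of the antisense gene Gm11586 by 443 bases, those of Gls2 overlap Spryd4 by 97 bases and those of Glul overlap Teddm2 by 116 bases, all on opposite strands, and Glul also shares 93 bases with the miRNA gene Mir8114 on its own strand. The strand setting of the counting is not given in the sources used here, so reads of those partners cannot be told apart from reads of the members.

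**Figure D1:**
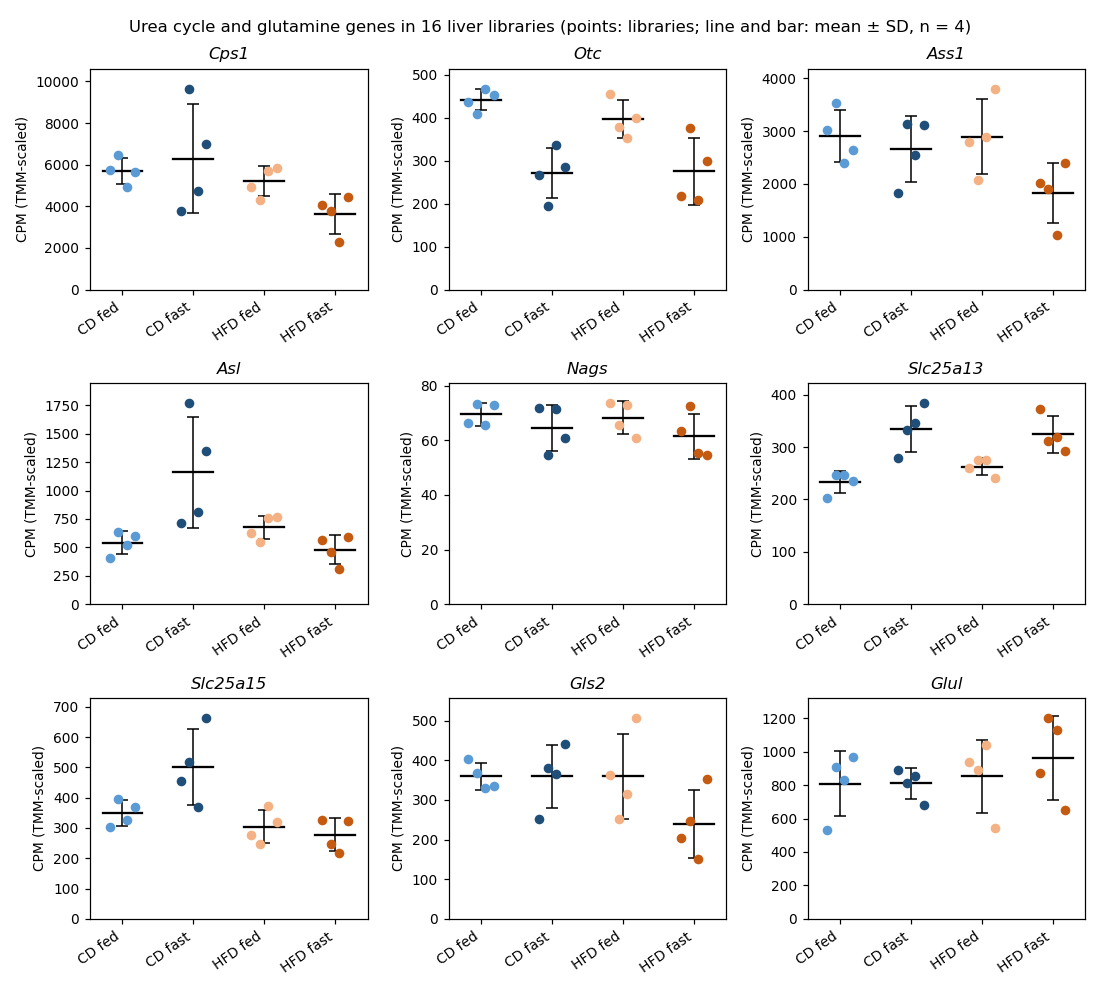
CPM of the 9 genes (vertical axes, linear from 0) in the 4 groups, with 1 point per library and the mean ± SD (n = 4) as line and bar. Otc libraries of CD fast livers, at most 336 CPM, lie below all CD fed libraries, and Asl libraries of CD fast livers, at least 715 CPM, lie above all libraries of HFD fast livers.

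Fasting in CD mice moved 4 of the 9 genes, and not in 1 direction. Asl, Slc25a13 and Slc25a15 rose and Otc fell, whereas Cps1, Ass1, Nags, Gls2 and Glul did not pass the test. The 4 of 9 compare with 25.2% of all genes tested (13.7% higher, 11.5% lower), and the median log2 fold change of the members was 0.00 against -0.01 over all genes. At an unadjusted p under 0.05 there were 4 as well, against 37.6% of all genes. The libraries of the 2 groups did not overlap for 3 members, against 25.4% of all genes.

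Asl (ENSMUSG00000025533, chr5:130011258-130029247, minus strand, GRCm38) encodes the enzyme that splits argininosuccinate into arginine and fumarate. Its 4 CD fed libraries held 409, 632, 521 and 604 CPM and its 4 CD fast libraries 715, 1767, 808 and 1343 CPM. Every fasted library was above every fed one, and CD fast replicates 2 and 4 were far above the other two. The log2 fold change was 1.10 (SE 0.27, 95% interval 0.53 to 1.66, edgeR adjusted p = 0.00766). It was smallest, 0.82, without CD fast replicate 2 (adjusted p = 0.0304).

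Otc (ENSMUSG00000031173, chrX:10252305-10321024, plus strand), which encodes the mitochondrial enzyme that makes citrulline and whose promoter is printed above, went the other way. It read 438, 409, 468 and 454 CPM in CD fed and 267, 195, 336 and 286 CPM in CD fast livers. The fasted libraries all lay below the fed ones, and the lowest was CD fast replicate 2, the library with the highest Asl. The log2 fold change was -0.71 (SE 0.18, 95% interval -1.09 to -0.33, edgeR adjusted p = 0.010).

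Slc25a13 (ENSMUSG00000015112, chr6:6041218-6217173, minus strand) encodes citrin, the carrier that exports aspartate from mitochondria, from which the cycle takes its second nitrogen. Fed CD livers gave 202, 246, 247 and 235 CPM and fasted ones 279, 332, 346 and 384 CPM, without overlap. On the log2 scale it rose by 0.52 (SE 0.10, 95% interval 0.30 to 0.75, edgeR adjusted p = 0.00227). Slc25a15 (ENSMUSG00000031482, chr8:22375551-22398597, minus strand), the carrier that exchanges ornithine and citrulline across the inner membrane, read 304, 396, 327 and 369.7 CPM in fed and 454, 517, 368 and 663 CPM in fasted livers. CD fast replicate 3 lay within the fed range. Its log2 fold change was the same to 2 decimals, 0.52 (SE 0.18, 95% interval 0.13 to 0.91), but the edgeR adjusted p of 0.0476 was close to the threshold. With the replicate number as a block it was 0.0540, and it also missed the threshold with limma-voom (0.0608), total count scaling (0.0705), no filter on low counts (0.0656) and only the CD groups in the fit (0.0571). It exceeded 0.05 in 10 of the 16 fits made without a library, namely without each CD fed library, without CD fast replicate 1, 2 or 4, and without replicate 1 or 4 of HFD fed or replicate 2 of HFD fast mice, and the highest value was 0.167 without CD fast replicate 4.

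Cps1 (ENSMUSG00000025991, chr1:67123026-67231259, plus strand) encodes the entry enzyme of the cycle. It read 5735, 6448, 4951 and 5665 CPM in CD fed livers, a narrow range, and 3774, 9652, 4742 and 7012 CPM in CD fast livers. The fasted libraries fell on both sides of the fed ones, and the log2 fold change of 0.14 (95% interval -0.39 to 0.68, edgeR adjusted p = 0.719) leaves room for a change in either direction. As for Asl, CD fast replicates 2 and 4 were the highest.

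Ass1 (ENSMUSG00000076441, chr2:31470207-31520672, plus strand), which joins citrulline and aspartate, had a log2 fold change of -0.13 (95% interval -0.64 to 0.39). Nags (ENSMUSG00000048217, chr11:102145513-102149477, plus strand), whose product N-acetylglutamate is required by the Cps1 enzyme, had -0.10 (95% interval -0.33 to 0.12). For Gls2 (ENSMUSG00000044005, chr10:128194457-128210004, plus strand) and Glul (ENSMUSG00000026473, chr1:153899944-153909723, plus strand) both fold changes were 0.00, with 95% intervals of -0.51 to 0.51 and -0.48 to 0.48. The Glul mean was 809.6 ± 194 CPM in the fed group and 809.9 ± 91.4 CPM in the fasted group (SD, n = 4). The lowest Glul library of the fed group, replicate 1 at 530.4 CPM, stood apart from the other 3, which read 832 to 967 CPM.

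With fasting in HFD mice 0 of 9 members passed the test in edgeR, against 8.86% of all genes tested. At an unadjusted p under 0.05 there were 4 (Otc, Ass1, Slc25a13 and Gls2), against 25.6% of all genes, and DESeq2 passed 2 (Otc and Ass1, adjusted p = 0.0360 and 0.0480). The fold changes were below 0 for 7 members, with a median of -0.49 on the log2 scale against 0.01 over all genes. The libraries did not overlap for Slc25a13, 1 of 9, against 16.7% of all genes.

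Among the enzymes, Ass1 read 2801, 2072, 2881 and 3802 CPM in HFD fed and 2009, 1905, 1039 and 2387 CPM in HFD fast livers. HFD fast replicate 3 was the lowest, and the groups overlapped. Its log2 fold change was -0.65 (95% interval -1.17 to -0.14, edgeR adjusted p = 0.107). Otc read 456, 378, 354 and 400.1 CPM in fed and 219, 376, 208 and 299 CPM in fasted livers, where replicate 2 alone stayed within the fed range. Its log2 fold change of -0.53 (95% interval -0.91 to -0.15) had an edgeR adjusted p of 0.0780, and without that library it was -0.73 (adjusted p = 0.0188).

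For Cps1 the HFD fed libraries held 4947, 4289, 5689 and 5857 CPM and the HFD fast libraries 4046, 3756, 2283 and 4447 CPM. Only HFD fast replicate 4 reached into the fed range. The log2 fold change was -0.52 (95% interval -1.06 to 0.02, edgeR adjusted p = 0.216). For Asl the values were 629, 549.9, 759 and 763 CPM in fed and 568, 459, 308 and 587 CPM in fasted livers, and replicate 3 was again the lowest of the fasted libraries. The change was -0.49 on the log2 scale (95% interval -1.05 to 0.07, edgeR adjusted p = 0.259).

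Slc25a13 was the member with the highest fold change in HFD mice. It read 259.8, 274, 274 and 242 CPM in fed and 373, 312, 319 and 292 CPM in fasted livers, without overlap, a log2 fold change of 0.30 (95% interval 0.08 to 0.53, edgeR adjusted p = 0.0821). It passed under total count scaling (0.35, adjusted p = 0.0318) and upper quartile scaling (0.33, adjusted p = 0.0466). Slc25a15 read 278, 246, 373 and 319.7 CPM in fed and 328, 246, 216 and 323 CPM in fasted livers, with a log2 fold change of -0.13 (95% interval -0.51 to 0.26). Nags had -0.15 (95% interval -0.38 to 0.07).

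Gls2, the periportal glutaminase, read 363, 253, 315 and 507 CPM in HFD fed and 204, 247, 151 and 352 CPM in HFD fast livers. Replicate 4 was the highest in both groups. The log2 fold change was -0.59 (95% interval -1.11 to -0.08, edgeR adjusted p = 0.139), with a range over the fits made without a library from -0.84 without HFD fast replicate 4 (adjusted p = 0.0408) to -0.38 without HFD fed replicate 4, and an adjusted p of at most 0.318. Glul, its pericentral counterpart, read 937, 892, 1039 and 541 CPM in fed and 871, 1203, 1130.0 and 649 CPM in fasted livers. Here replicate 4 was the lowest in both groups. For Glul the log2 fold change was 0.18 (95% interval -0.30 to 0.66).

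**Figure D2:**
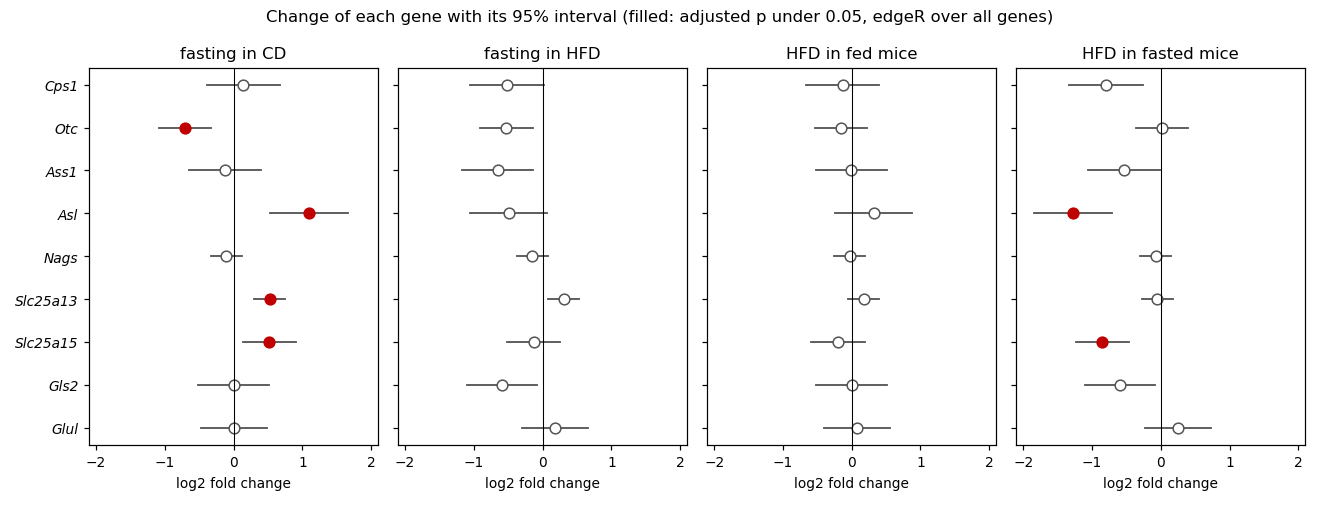
log2 fold change of each gene (horizontal axis) with its 95% interval in the 4 pairwise comparisons, filled where the adjusted p over all genes was under 0.05. Filled points are Otc, Asl, Slc25a13 and Slc25a15 for fasting in CD, and Asl and Slc25a15 for HFD in fasted mice.

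Diet in fed mice left the members close together. Of the 9 genes 0 passed the test in edgeR or in DESeq2, and 0 had an unadjusted p under 0.05 in edgeR, against 7.50% and 22.9% of all genes. Fold changes lay between -0.20 (Slc25a15, 95% interval -0.59 to 0.19) and 0.32 (Asl, 95% interval -0.24 to 0.88) on the log2 scale. The libraries overlapped for every member, so that 0 of 9 were without overlap against 15.7% of all genes. For Glul the change was 0.07 (95% interval -0.41 to 0.55) and for Gls2 0.00 (95% interval -0.51 to 0.51), so that changes of either sign within those bounds could not be resolved with 4 libraries per group.

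Between the diets in fasted mice, Asl and Slc25a15 were lower in HFD fast than in CD fast livers, 2 of 9 members against 7.70% of all genes (4.65% lower). At an unadjusted p under 0.05 there were 5, against 25.9%, and the same 2 members had no overlap, against 14.0% of all genes. Asl read 459 to 587 CPM in 3 HFD fast libraries and 308 in replicate 3, below the lowest CD fast library at 715 CPM. The change between diets was -1.27 on the log2 scale (SE 0.27, 95% interval -1.84 to -0.70, edgeR adjusted p = 0.0125). For Slc25a15 the 4 HFD fast libraries lay between 216 and 328 CPM and the CD fast libraries between 368 and 663 CPM, a log2 fold change of -0.85 (SE 0.18, 95% interval -1.24 to -0.46, edgeR adjusted p = 0.0138). Both passed in all 16 fits made without a library. When the 8 fasted libraries were fitted alone the sizes were -1.27 and -0.85, and neither passed (adjusted p = 0.0705 and 0.0691).

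Total count scaling, which moved the median of all genes by 0.16 in this comparison, gave -1.10 for Asl and -0.68 for Slc25a15, both past the test. The fold changes of 7 members were below 0, except that under total count scaling those of Nags (0.08) and Slc25a13 (0.11) were above it, with a median of -0.54 on the log2 scale against 0.01 over all genes. Cps1 had -0.79 (95% interval -1.33 to -0.25, edgeR adjusted p = 0.0674), and it passed in DESeq2 (adjusted p = 0.0159) and in edgeR without CD fast replicate 1 (0.0314), but in none of the other 15 fits made without a library, and it was -0.51 without CD fast replicate 2 (0.190). Ass1 had -0.54 (edgeR adjusted p = 0.179; -0.34 without HFD fast replicate 3) and Gls2 -0.59 (edgeR adjusted p = 0.136). Otc, with means of 271 ± 58.6 CPM in CD fast and 276 ± 78.3 CPM in HFD fast livers (SD, n = 4), had 0.02 (95% interval -0.36 to 0.40), and Slc25a13 had -0.05 (95% interval -0.27 to 0.18). Glul had 0.25 (95% interval -0.23 to 0.73).

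The difference between the diets in their response to fasting, tested as such (HFD minus CD), passed for 1 of the 9 members, Asl, against 2.59% of all genes, and 2 members had an unadjusted p under 0.05, against 20.2%. The Asl fasting changes of 1.10 in CD and -0.49 in HFD differed by -1.59 on the log2 scale (SE 0.37, 95% interval -2.38 to -0.79, edgeR adjusted p = 0.0369). In 11 of the 16 fits without 1 library the adjusted p exceeded 0.05, between 0.0514 and 0.0751, namely without each CD fed library, without CD fast replicate 2 or 4, without HFD fed replicate 1, 3 or 4, and without HFD fast replicate 2 or 3. The difference in those 16 fits ranged from -1.76 to -1.31. Slc25a15 had a difference of -0.65 (95% interval -1.20 to -0.10, edgeR adjusted p = 0.172). For Otc, whose fasting change was -0.71 in CD and -0.53 in HFD, the difference was 0.18 (95% interval -0.36 to 0.72). For Slc25a13 it was -0.22 (95% interval -0.54 to 0.09). The 5 comparisons share libraries, so their values are set side by side and are not independent.

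Ratios between genes of the same library do not depend on scaling between libraries, whereas a share of all counts amounts to total count scaling. Both are given as descriptions. Cps1, Otc, Ass1 and Asl together took 0.934% ± 0.102 of all counts in fed and 0.980% ± 0.333 in fasted mice on CD (SD, n = 4). On HFD they took 0.938% ± 0.162 when fed and 0.661% ± 0.196 when fasted. As CPM after TMM their sum was 9584 ± 1104 (fed) and 10384 ± 3615 (fasted) on CD. On HFD that sum was 9157 ± 1488 (fed) and 6224 ± 1672 (fasted). Of the counts of these 4 enzymes, Asl took 5.67% ± 0.989 in fed and 10.96% ± 1.03 in fasted CD mice, and the lowest CD fast library (9.57%) was above the highest CD fed library (6.45%). In HFD livers the Asl share was 7.39% ± 0.373 fed and 7.75% ± 0.539 fasted, 2 ranges that overlapped each other and lay between those of the CD groups. The log2 ratio of Asl to Cps1 separated the same groups more tightly, at -3.41 ± 0.27 (fed) and -2.45 ± 0.08 (fasted) on CD and at -2.95 ± 0.03 (fed) and -2.92 ± 0.08 (fasted) on HFD. The 4 CD fast libraries, which differed widely in Asl and in Cps1, agreed in this ratio (-2.55 to -2.38). The log2 ratio of Otc to Cps1 spread most in CD fast livers, from -5.63 in replicate 2 to -3.82 in replicate 3.

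**Figure D3:**
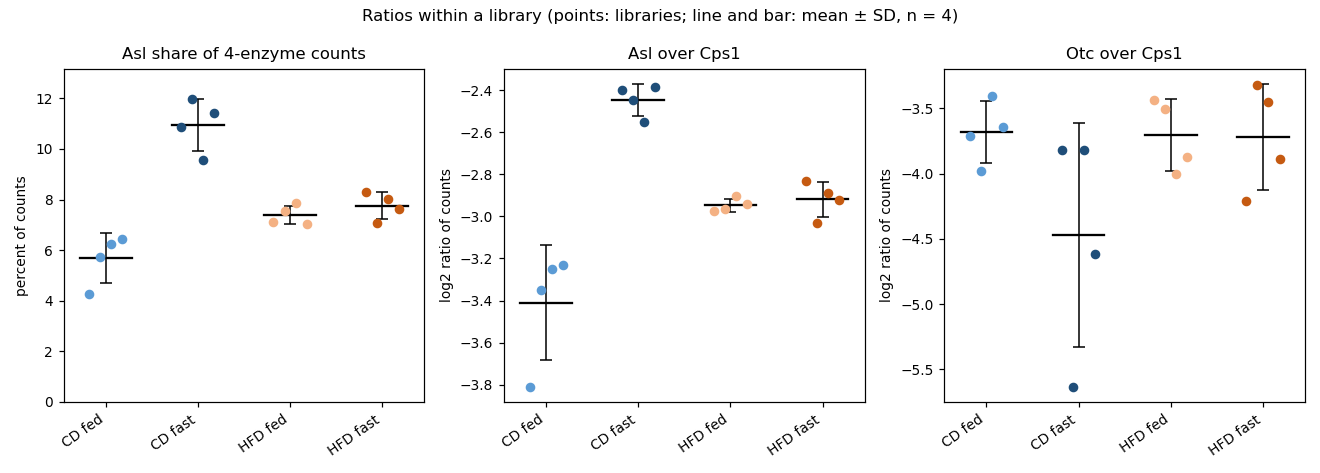
Share of Asl in the counts of the 4 enzymes (percent, axis from 0) and log2 count ratios of Asl and Otc to Cps1, with 1 point per library and the mean ± SD (n = 4). In the Asl to Cps1 panel the CD fast libraries (-2.55 to -2.38) stand above both HFD groups, and the CD fed libraries (-3.81 to -3.23) below them.

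Across the 16 libraries, Otc varied less closely with Cps1 than Ass1 and Asl did. As a description over libraries that share groups and processing, log2 CPM of Cps1 correlated with Ass1 (Pearson r 0.895) and Asl (0.784), and after subtraction of group means these were 0.871 and 0.935. Cps1 and Otc had r 0.166, and -0.145 within groups. Ass1 had r 0.589 with Asl (0.772 within groups) and 0.447 with Otc (0.165 within groups). Gls2 went with Ass1 (0.932, within groups 0.896), and Gls2 and Glul ran in opposite directions (-0.684, within groups -0.682). Replicate 4 of HFD fed and of HFD fast mice weighed most in the latter. Their log2 deviations from the group mean were 0.54 and 0.63 for Gls2 and -0.61 and -0.53 for Glul. These libraries also deviated together over genes (r 0.746), and the correlation without them was not computed. The log2 ratio of Gls2 to Glul was -1.14 ± 0.51 (fed) and -1.19 ± 0.49 (fasted) on CD and -1.25 ± 0.80 (fed) and -2.04 ± 0.85 (fasted) on HFD (SD, n = 4). Its highest values within these groups came from CD fed replicate 1 (-0.39), CD fast replicate 4 (-0.63), HFD fed replicate 4 (-0.09) and HFD fast replicate 4 (-0.88). The genes outside the set most like the mean of the 4 enzymes, among 10994 genes with a mean of at least 100 counts, were Got1 (r 0.921), Etnppl (0.913) and Slc15a4 (0.880). Genes whose pattern was most like that of Glul included Slc16a11 (0.942) and Colec12 (0.891).

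**Figure D4:**
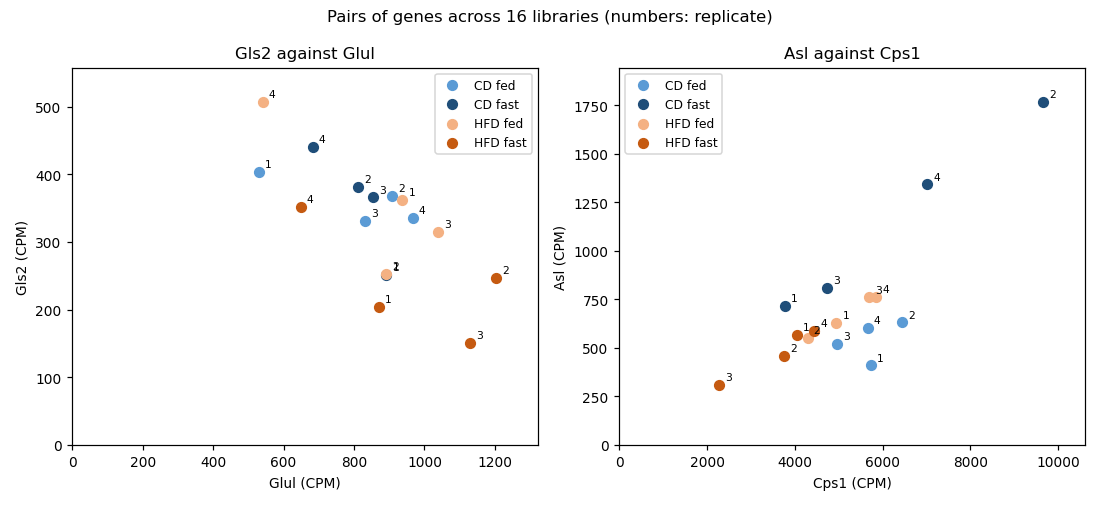
CPM of Gls2 against Glul and of Asl against Cps1 in the 16 libraries (linear axes from 0), coloured by group and numbered by replicate. Libraries with less Glul tend to have more Gls2 (r -0.684 over log2 CPM), and CD fast replicates 2 and 4 lie at the top right for Asl and Cps1.

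Genes that supply or share the substrates of the cycle were counted as a list of 24 partners, of which 23 could be tested. In CD mice 8 of the 23 rose with fasting and 0 fell, against 13.7% and 11.5% of all genes, with a median log2 fold change of 0.17. The count of rises was 5 without CD fast replicate 2, 6 without CD fed replicate 1 and 6 without a filter on low counts. A partner passed as lower under 5 of the alternatives that left out no library, DESeq2 and limma-voom among them, and in 4 fits made without a library, with 2 lower without CD fed replicate 1. The rises included Oat, the ornithine aminotransferase (753.8 ± 165 to 2394 ± 309 CPM, log2 fold change 1.67, SE 0.22, edgeR adjusted p = 8.81e-05), and Slc7a2, a cationic amino acid transporter that takes up arginine and ornithine (533 ± 112 to 1212 ± 494 CPM, 1.18, adjusted p = 0.0130). They also included Slc25a22, a mitochondrial glutamate carrier (1.11, adjusted p = 0.00820), and Gpt2, the mitochondrial alanine aminotransferase (0.86, adjusted p = 0.00191). For these 4 genes the fed and fasted libraries did not overlap. In HFD mice 2 rose and 0 fell, a share close to the 8.86% of all genes that passed, with a median of 0.04. Oat again had no overlap (477 ± 93.0 to 1526 ± 439 CPM, 1.68, SE 0.22, edgeR adjusted p = 0.000500), and the other was Aqp9, a channel for glycerol and urea, which exceeded 0.05 in 8 of the 16 fits without 1 library (up to 0.0955, without HFD fed replicate 1). With HFD in fed mice only Rhbg, an ammonium transporter, passed, at a mean of 1.55 CPM in CD and 0.417 CPM in HFD livers (-1.90, SE 0.41, edgeR adjusted p = 0.0125), in libraries of 6 to 127 counts. In fasted mice 3 were lower with HFD and 0 higher, against 7.70% of all genes passing. That count depended on the setting, with 7 lower in DESeq2, 2 in limma-voom and with the replicate block, 1 under upper quartile scaling, 0 when only the fasted groups were fitted, and 1 lower and 2 higher (Slc1a2 and Aldh4a1) under total count scaling. They are named here with their values known, since their libraries overlapped: Slc38a2, a glutamine transporter (edgeR adjusted p = 0.0430), Slc25a22 (0.0437) and Got1, the cytosolic aspartate aminotransferase (0.0215). When 1 library was left out, Slc38a2 exceeded 0.05 in 12 of 16 fits (up to 0.109, without CD fast replicate 4), Slc25a22 in 10 (up to 0.127, without CD fast replicate 2) and Got1 in 2 (0.0618 at most, without CD fast replicate 2 or HFD fast replicate 3). Among the other settings Slc38a2 missed the threshold in 5 (up to 0.135), Slc25a22 in 4 (up to 0.121) and Got1 in 1, the fasted groups alone (0.0791). The calls of Oat, Slc7a2, Slc25a22, Gpt2 and Rhbg in the other comparisons held in all 16. The interaction passed for 0 partners in edgeR, with 10 of 23 at an unadjusted p under 0.05 (2.59% and 20.2% of all genes), and for 4 in DESeq2, which called 1054 genes in all against 390 in edgeR.

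Of 12 regulators of the cycle's genes, 3 rose with fasting in CD and 0 fell, which is the share of all genes that passed (25.2%). Gcgr, the glucagon receptor, rose from 262 ± 12.8 to 352 ± 37.3 CPM (0.42, SE 0.09, edgeR adjusted p = 0.00437) and Crtc2, a coactivator of CREB, by 0.33 (adjusted p = 0.0225), both without overlap. The third was the coactivator Ppargc1a, with overlapping libraries and an adjusted p of 0.0287, which did not pass in the blocked fit of the CD libraries, in limma-voom or with only the CD groups in the fit (up to 0.0819). With the replicate block, and under total count scaling, 3 rose and 1 passed as lower, and in the blocked fit of the CD libraries 4 rose and 1 passed as lower. Crtc2 lost its call without CD fed replicate 1 or 3 or CD fast replicate 2 (up to 0.0750), and Ppargc1a without CD fed replicate 3 or 4 or CD fast replicate 2 or 4 (up to 0.141). In HFD mice 2 fell with fasting and 0 rose, against 8.86% of all genes passing. Hnf4a, a hepatocyte nuclear receptor, fell from 986 ± 114 to 674 ± 52.9 CPM (-0.55, SE 0.10, edgeR adjusted p = 0.00601), and Klf15, a transcription factor of amino acid breakdown, from 212 ± 34.5 to 132 ± 17.5 CPM (-0.68, SE 0.16, adjusted p = 0.0200). Klf15 was also lower in HFD fast than in CD fast livers (-0.72, edgeR adjusted p = 0.0172), but not with only the fasted groups in the fit (0.0575). It exceeded 0.05 for fasting in HFD without replicate 1 or 3 of HFD fed or replicate 3 of HFD fast mice (up to 0.0625), and for diet without HFD fast replicate 3 or 4 (up to 0.0559), whereas Hnf4a and Gcgr held in all 16 fits. Diet in fed mice and the interaction passed for 0 of the 12 in edgeR (7.50% and 2.59% of all genes), with 2 and 4 at an unadjusted p under 0.05 (22.9% and 20.2% of all genes), and for 0 and 3 in DESeq2, which called 1734 and 1054 genes in all.

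Because the cycle is periportal and Glul pericentral, genes known for either zone were counted as well. Of 12 pericentral genes 2 rose and 4 fell with fasting in CD (median -0.29), where 25.2% of all genes passed, 13.7% higher and 11.5% lower. The falls included Cyp1a2 (-1.62, edgeR adjusted p = 0.00619), Rgn (-1.51, adjusted p = 0.00113) and Cyp27a1 (-0.86, adjusted p = 0.00413), and Oat, which is on this list too, was 1 of the rises. The other was Cyp2e1, named with its values known, whose adjusted p of 0.0387 exceeded 0.05 in 8 of the 16 fits made without a library (up to 0.111, without CD fed replicate 1) and without a count filter (0.0506). In HFD mice 1 rose (Oat) and 0 fell, against 8.86% of all genes passing. Of 10 periportal genes 3 rose and 1 fell with fasting in CD (median 0.29), against the same shares. Among the rises was Pck1, of gluconeogenesis (0.75, edgeR adjusted p = 0.0416), named with its values known, since its libraries overlapped. That call exceeded 0.05 in 7 of the 16 fits made without a library (up to 0.119, without CD fast replicate 2). It also missed the threshold in 3 of the other settings (up to 0.0820). Cpt2, of mitochondrial fatty acid import, rose by 0.95 (edgeR adjusted p = 0.000130) and Hsd17b13, a lipid droplet enzyme, by 0.70 (adjusted p = 0.0240), whereas Cyp2f2, a cytochrome P450, fell by 0.67 (adjusted p = 0.00497). In HFD mice, again with 8.86% of all genes passing, 2 periportal genes fell with fasting and 0 rose. These were Sds, the serine dehydratase (-1.48, edgeR adjusted p = 0.0158), and Pck1 (-0.86, adjusted p = 0.0467). With HFD in fed mice 1 periportal gene was higher and 0 lower, against 7.50% of all genes passing. It was Cpt2 (0.46, edgeR adjusted p = 0.0431), without overlap. Its adjusted p exceeded 0.05 in 9 of the 16 fits without 1 library (up to 0.145, without HFD fed replicate 3) and without a count filter (0.0648). In fasted mice 3 were lower with HFD, where 4.65% of all genes were lower, among them Pck1 (-1.49, edgeR adjusted p = 0.00608) and Hal, the histidine ammonia-lyase (-0.73, adjusted p = 0.0461). In fits without 1 library Hsd17b13 exceeded 0.05 in 5 of 16 (up to 0.0649, without CD fed replicate 4). Pck1 for fasting in HFD did so in 10 (up to 0.131, without HFD fast replicate 3) and Hal in 13 (up to 0.0985, without CD fast replicate 2). Apart from the losses given above, the other calls named for the 2 zones held in all 16. Among the other settings Pck1 for fasting in HFD missed the threshold in 3 (up to 0.0569) and Hal in 4 (up to 0.129).

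Markers of other liver cells moved with fasting in CD and with diet in fasted mice. Of 6 endothelial markers 3 were lower in CD fast livers (Stab2, Pecam1 and Cdh5), where 11.5% of all genes were lower, and the list summed to 228 to 258 CPM in fed and 164 to 217 CPM in fasted CD mice, and to 215 to 229 CPM in fed and 202 to 267 CPM in fasted HFD mice. Of 6 macrophage markers 3 were lower (Clec4f, Adgre1 and Csf1r), and the sums in the same order of groups were 261 to 445, 172 to 278, 269 to 381 and 234 to 398 CPM. Of 6 stellate cell markers 2 were lower (Reln and Rgs5), with sums of 215 to 286, 134 to 217, 231 to 357 and 230.4 to 357 CPM. Hepatocyte markers summed to 103495 to 135052, 80473 to 108383, 106097 to 133766 and 67644 to 100332 CPM. Ttr was lower with fasting in CD (-0.92, edgeR adjusted p = 0.00436), and Tat was lower in HFD fast than in HFD fed livers (-1.35, edgeR adjusted p = 0.0437) and than in CD fast livers (-1.92, adjusted p = 0.0123). In that last comparison Asl and Slc25a15 were lower, and 7.70% of all genes passed in either direction. Of the 6 endothelial markers Stab2, Pecam1 and Cdh5 (0.43, 0.44 and 0.49) were higher in HFD fast livers. Of the 6 stellate cell markers Reln (0.75) was higher there too (edgeR adjusted p of these markers from 0.0106 to 0.0411). Cdh5 also passed in the interaction (0.75, edgeR adjusted p = 0.0164), as Asl did. Of 5 markers of erythroid cells only Alas2 passed a test. Alas2 was lower with fasting in CD (-1.09, edgeR adjusted p = 1.2e-05) and in HFD (-0.38, adjusted p = 0.0365). It was higher in HFD fast than in CD fast livers (0.39, adjusted p = 0.0365), and passed in the interaction (0.71, adjusted p = 0.0248). The 5 together did not follow it, with overlapping sums of 306 to 402 CPM in fed and 199 to 404 CPM in fasted CD mice. In HFD mice they summed to 273 to 323 CPM fed and 299 to 504 CPM fasted. In bulk tissue, fewer cells of a type and less RNA per cell cannot be told apart, and the part of these differences in the results for the members was not tested.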

How the data were processed

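Liver RNA of 16 mice was sequenced in 4 groups of 4 libraries. The counts deposited by the authors are whole, unnormalized reads per Ensembl gene in 1 table. Per the labels and the study's methods, polyadenylated RNA was prepared with NEBNext Ultra II, sequenced as paired ends and aligned to GRCm38 in first-strand mode, and the submitters' processing notes name CASAVA 1.8.4, TopHat2 2.0.11 and featureCounts. Poly(A) selection and gene-level counting mean that unpolyadenylated RNA and isoforms were not measured. Whether a read pair counted once is not given in the sources used here.

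Groups and replicate numbers came from the labels, and 45143 of 46078 genes matched a symbol. Gene positions and lengths are from GENCODE vM21 (GRCm38). The analysis used edgeR 4.0.16 (R 4.3.3): filterByExpr left 15075 genes, TMM scaling was used, and 1 coefficient per group was fitted over all 16 libraries (12 residual degrees of freedom). Quasi-likelihood tests with Benjamini-Hochberg adjustment over all genes (threshold 0.05) were made for 4 pairwise comparisons and the interaction, and an adjusted p is edgeR's where no other tool is given. The log2 CPM used for correlations had a prior count of 2. The floor of 3 counts and the precision it gives cover counting error only. Each replicate is a separately labelled sample, and p-values measure the spread between them.

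Alternatives were DESeq2 1.42.0, limma-voom (limma 3.58.1), 3 other scalings, 2 other count filters, fits of only the groups compared, a threshold of 0.01, the replicate number as a block, and 16 fits without 1 library each. A further 2 were chosen after seeing the data, the principal transcript length and a blocked fit of the CD libraries. Same-numbered CD fed and CD fast libraries deviated together (r from 0.122 to 0.138 over genes, each library closest to its own number), which the labels do not explain. The main fit used no pairing in any comparison. The replicate block was fitted over all 16 libraries and so joined the same numbers across all 4 groups. Only the blocked fit of the CD libraries took the numbers as pairs for fasting in CD alone. No pair of libraries within a group was a duplicate by a chi-square comparison of counts. The tests were also run on simulated counts, whose outcome is not given here.

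The members and the lists were chosen with earlier results of these data known. The genes named were 9 of the 10 members, shares being taken over the 4 enzymes among them, those genes of the lists with an adjusted p under 0.05 and no overlap between the groups compared (at most 4 per list and comparison, by size of change), and the 3 genes most correlated with the enzyme mean and with Glul. Others named are said to be so. The remaining member and 1 correlated gene are not reported here.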

Additional observations from a re-analysis of the deposited data

Results flagged for a closer look

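The response to fasting differed between the diets by the test of the difference itself (edgeR, change in HFD minus change in CD, log2) for 5 of the genes described. By list these were 1 of 9 members, 2 of 10 periportal genes, 1 of 6 endothelial and 1 of 5 erythroid markers, against 2.59% of all genes. Of the 23 partners, 12 regulators and 12 pericentral genes 0 passed. The 5 genes were Asl (-1.59, adjusted p = 0.0369), Sds (-1.96, adjusted p = 0.0407), Pck1 (-1.60, adjusted p = 0.0296), the endothelial marker Cdh5 (0.75, adjusted p = 0.0164) and the erythroid marker Alas2 (0.71, adjusted p = 0.0248). Sds had fasting changes of 0.48 in CD and -1.48 in HFD, and Pck1 of 0.75 and -0.86. When 1 library was left out, Sds exceeded 0.05 in 13 of 16 fits and Pck1 in 7, each with its highest value (0.0751 and 0.0666) without HFD fed replicate 3. Sds also missed the threshold under total count scaling (edgeR adjusted p = 0.0538). Of the 80 sets of 4 libraries examined for a single library far from the rest, 0 passed Dixon's limit at the 95% level. These sets did not cover all the list genes and markers named here. Cyp2e1 in CD fed livers, for example, ranged from 4044 to 6399 CPM around a mean of 5753 CPM.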

How the results depend on the processing

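The number of members past the test depended on the tool and threshold. For fasting in CD (4 members) it was 2 at an adjusted p under 0.01 and 3 to 4 without 1 library. For fasting in HFD (0) it was 2 with DESeq2, 1 with total count scaling, 1 with upper quartile scaling and 0 to 1 without 1 library (Otc without CD fast replicate 2 or HFD fast replicate 2, Gls2 without HFD fast replicate 4). For HFD in fasted mice (2) it was 0 at 0.01, 0 when only the groups compared were fitted and 2 to 3 without 1 library (3 without CD fast replicate 1, with Cps1; also 3 with DESeq2). For the interaction (1) it was 0 at 0.01 and 0 to 1 without 1 library, and no fit of only the groups compared exists for it. Over all genes, DESeq2 gave 1734 for HFD in fed mice, 1952 for HFD in fasted mice and 1054 for the interaction (edgeR 1131, 1161 and 390), total count scaling 2101 and the 2 fasted groups alone 90 for HFD in fasted mice, and the threshold of 0.01 left 1859, 331, 338, 217 and 31 in the 5 comparisons. Without 1 library the counts ranged from 2857 to 3958, 505 to 1533, 514 to 1268, 535 to 1354 and 147 to 461. With the replicate block fasting in CD gave 3 members (Slc25a15 at an adjusted p of 0.0540, or 0.0339 in the blocked fit of the CD libraries alone), and the block changed no other call of a member. For the other comparisons no separate paired fit was made, since r of same-numbered libraries did not exceed 0.1 in every pair. For fasting in HFD r was above 0 in each pair, at 0.0911, 0.0949, 0.165 and 0.746 for replicates 1 to 4. Only HFD fed replicate 4 was closest to its own number there. In the diet comparisons r ranged from -0.339 to 0.264. The effect of pairing the HFD libraries alone was not tested.

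Signs changed only for fold changes that did not pass the test, and the cause was not tested. For fasting in CD, Gls2 gave -0.026 with limma-voom, -0.046 with total count scaling, -0.015 without a filter, -0.0085 with a mean of at least 100 counts, -0.028 with the replicate block, -0.0034 with only the groups compared and -0.026 in the blocked CD fit, and Glul -0.037 with total count scaling, -0.014 without a filter, -0.0050 with the mean of 100, -0.011 with the block and -0.0029 with only the groups compared. For HFD in fed mice, Gls2 gave 0.00069 with DESeq2, 0.0016 with its size factors, 0.074 with total count, 0.024 with upper quartile, 0.014 with the mean of 100 and 0.0070 with only the groups compared, Ass1 0.069, 0.018, 0.0085 and 0.0027 with the last 4 of these, and Nags 0.042 with total count scaling. Total count scaling also gave 0.077 for Nags and 0.11 for Slc25a13 in HFD against CD fasted mice and 0.035 for Nags in the interaction. Without 1 library, fasting in CD ranged from -0.14 to 0.33 for Cps1, -0.22 to 0.019 for Ass1, -0.12 to 0.14 for Gls2 and -0.16 to 0.097 for Glul. HFD in fed mice ranged from -0.17 to 0.12 for Ass1, -0.065 to 0.024 for Nags, -0.21 to 0.14 for Gls2 and -0.083 to 0.24 for Glul. HFD in fasted mice ranged from -0.16 to 0.14 for Otc and -0.13 to 0.025 for Slc25a13, and the interaction from -0.015 to 0.29 for Otc and -0.14 to 0.0054 for Nags. Apart from the fits without 1 library, 367 fold changes of single members kept their direction and side of the threshold, 26 changed sign, 5 gained and 7 lost a call. No member was below 50 CPM in any library, and the effect of sequencing depth was not tested.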
